A study of Mus musculus with 6 samples.

Results

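The miR-29 family comprised 7 mature miRNAs of 4 precursor genes. They were the 3p members mmu-miR-29a-3p, mmu-miR-29b-3p and mmu-miR-29c-3p and the 5p members mmu-miR-29a-5p, mmu-miR-29b-1-5p, mmu-miR-29b-2-5p and mmu-miR-29c-5p, written below without the species prefix. Members were the read sequences whose deposited miRNA annotation named one of these 7 labels, which gave 2086 of 143934 read sequences and 7 of 1101 miRNA labels. None of these reads carried a second miRNA label.

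Ago-RP-Seq sequences the short RNAs that come down with Argonaute, the protein at the core of the RNA-induced silencing complex (RISC), when a peptide of GW182 is used as bait. RNA came from the cortex and hippocampus combined of male C57BL/6J (BL6) mice aged 2 months (2M, 3 libraries) or 18 months (18M, 3 libraries). No transgene, deletion or treatment is given for either group, and the question was whether the RISC content differs with age. The 6 libraries held 19272046 to 25080484 reads, and values are given in RPM, reads scaled to the total of each library.

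miR-29 is a family of conserved miRNAs made from a pair of clusters. Its members are abundant in the mature brain, in neurons and astrocytes, and rise as the brain matures. Known targets include collagens and other matrix genes, DNA methyltransferases and BH3-only genes of apoptosis, which are recognized through the seed, the stretch near the 5′ end of the miRNA that pairs with the target.

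The mature sequences show what the members share. They are RefSeq sequences (GRCm38.p6) with the seed, bases 2 to 8, in capitals. The 3p members have 1 seed in common:

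miR-29a-3p: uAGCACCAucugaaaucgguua

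miR-29b-3p: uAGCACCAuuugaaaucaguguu

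miR-29c-3p: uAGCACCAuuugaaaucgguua

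Counted from the 5′ end, miR-29c-3p differs from miR-29a-3p only by C10U. miR-29b-3p differs from it by C10U, G18A, U21G and A22U and is 1 base longer. The 5p members, which come from the opposite arm of the hairpin, have 4 different seeds:

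miR-29a-5p: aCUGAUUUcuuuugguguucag

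miR-29b-1-5p: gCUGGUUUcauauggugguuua

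miR-29b-2-5p: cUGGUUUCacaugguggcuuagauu

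miR-29c-5p: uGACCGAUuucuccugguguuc

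miR-29b-3p is the same sequence from both miR-29b genes, so that its reads cannot be assigned to one of them, whereas the 5p arms can be told apart. In miR-29b-1-5p numbering the 5p arm of miR-29b-2 starts 1 base later and carries U11C and U19C.

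Mir29a (chr6:31062660-31062747) and Mir29b-1 (chr6:31063023-31063093) lie on the minus strand, 275 bases apart. Neither is inside a longer annotated gene, and Mir29b-1 overlaps the lincRNA Gm27019 by 2 bases. Mir29b-2 (chr1:195037040-195037120) and Mir29c (chr1:195037547-195037634) lie on the plus strand, 426 bases apart, within an exon of the noncoding transcript A330023F24Rik. On the opposite strand the same bases belong to an exon and UTR of Cd46, which encodes a complement regulator. These positions are from GENCODE M21 on GRCm38.

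The 3p members dominated the family at both ages. The 3p reads summed to 50170, 52654 and 54172 RPM in the 2M libraries and to 89610, 49981 and 80550 RPM in the 18M libraries (replicates 1, 2 and 3). All 7 members together made up 5.33, 5.55 and 5.72% of the reads with a miRNA label at 2M and 9.50, 5.29 and 8.53% at 18M. Thus 18M replicates 1 and 3 stood above every 2M library, and 18M replicate 2 was at the 2M level.

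miR-29a-3p was the most abundant member and ranked 5 among all miRNA labels by mean RPM. Its level was 28793, 27229 and 31067 RPM at 2M and 45484, 30537 and 43090 RPM at 18M, a ratio of means of 1.37. One 18M library lay within the 2M range, and the groups overlapped. The fitted log2 fold change of 18M over 2M was 0.43 ± 0.17 (SE, 95% interval 0.03 to 0.83, limma adjusted p = 0.238).

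miR-29b-3p, ranked 8, had 14825, 19044 and 16622 RPM at 2M and 32629, 14831 and 27676 RPM at 18M. Its log2 fold change was 0.50 ± 0.29 (SE, 95% interval -0.20 to 1.21, limma adjusted p = 0.416). miR-29c-3p, ranked 34, had 6552, 6381 and 6484 RPM at 2M and 11497, 4614 and 9784 RPM at 18M. Here 18M replicate 2 was below all 2M libraries, and the log2 fold change was 0.31 ± 0.33 (SE, 95% interval -0.48 to 1.10, limma adjusted p = 0.677). For both members the 18M libraries spread far more than the 2M libraries did.

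The 5p members were far lower than the 3p members of the same genes in all 6 libraries. miR-29a-5p had 431, 282 and 312 RPM at 2M and 587, 393 and 552 RPM at 18M, with a log2 fold change of 0.58 ± 0.22 (SE, limma adjusted p = 0.238). miR-29c-5p had 492, 295 and 504 RPM at 2M and 587, 485 and 625 RPM at 18M, with a log2 fold change of 0.43 ± 0.24 (SE, limma adjusted p = 0.393). Without 2M replicate 2, the library with the lowest value, the log2 fold change of miR-29c-5p was 0.17. Both members overlapped between the ages.

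The arms of the miR-29b genes were the least abundant members. miR-29b-1-5p had 38.3, 35.6 and 34.8 RPM at 2M and 41.3, 38.0 and 45.1 RPM at 18M, with a log2 fold change of 0.19 ± 0.11 (SE, limma adjusted p = 0.421). miR-29b-2-5p had 36.3, 30.9 and 30.7 RPM at 2M and 43.3, 43.7 and 51.1 RPM at 18M, with a log2 fold change of 0.48 ± 0.13 (SE, limma adjusted p = 0.0966). Every 18M library exceeded every 2M library for miR-29b-2-5p, which was the case for no other member.

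**Figure D1:**
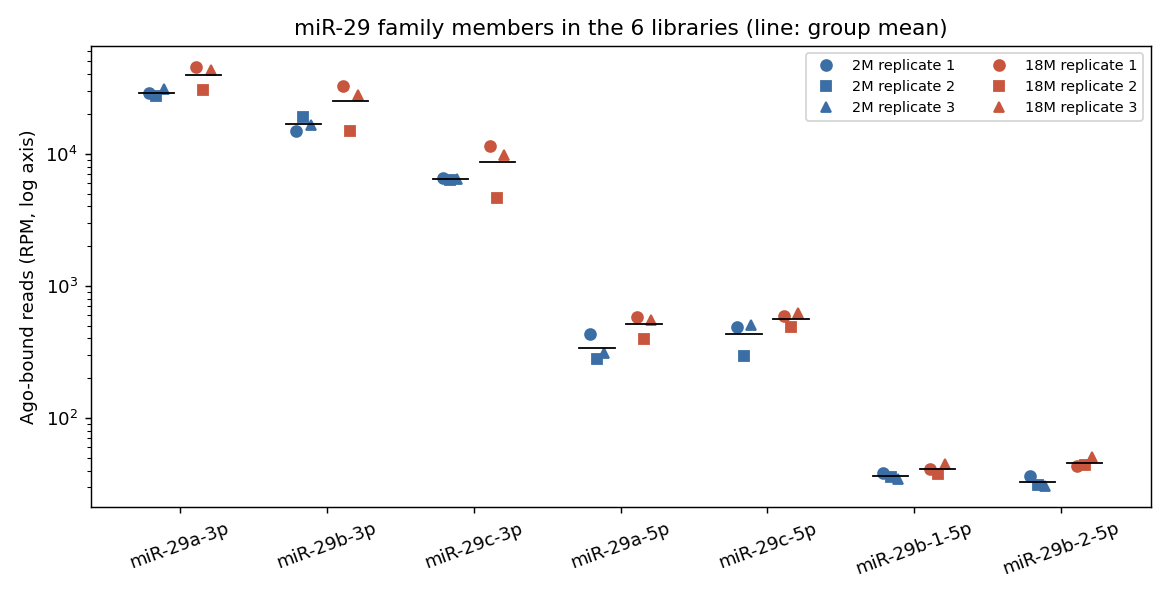
Level of each family member in RPM (log axis) in the 3 2M libraries (blue) and the 3 18M libraries (red), with the replicate number as the symbol and the group mean as a line. The 18M replicate 2 (square) lies apart from the other 18M libraries for the 3p members, and only miR-29b-2-5p has groups that do not overlap.

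All 7 members passed the filter of a mean of at least 10 RPM. All 7 had a fold change above 0, against 37.97% of all 474 miRNAs tested (52.32% under median-of-ratios scaling). Their median was 0.43 on the log2 scale, against -0.07 for all miRNAs tested. The members share precursor genes and libraries, so they are not independent. None had an adjusted p under 0.05 by limma, where 4.85% of all miRNAs tested were called and 0.422% were called higher at 18M. The p before adjustment was under 0.05 for 3 members (miR-29a-3p, miR-29a-5p and miR-29b-2-5p), against 17.9% of all miRNAs tested in either direction and 4.43% higher at 18M. Groups did not overlap for 1 member, against 24.9% of all miRNAs in either direction and 5.7% with every 18M library higher. By edgeR, which called 2.95% of all miRNAs tested, no member was called, with adjusted p from 0.0577 to 0.4282. By DESeq2, which called 9.7% of them, the same 3 members were called, with adjusted p of 0.03 for miR-29a-3p, 0.0401 for miR-29a-5p and 0.0023 for miR-29b-2-5p.

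The calls of the 3p members depended on 18M replicate 2. Without this library the log2 fold change was 0.61 for miR-29a-3p (limma adjusted p = 0.0404), 0.84 for miR-29b-3p (limma adjusted p = 0.0469) and 0.71 for miR-29c-3p (limma adjusted p = 0.0456), in a fit that called 3.14% of 477 miRNAs tested. Without 18M replicate 1 it fell to 0.32, 0.28 and 0.05, respectively, and without 18M replicate 3 that of miR-29c-3p was 0.17.

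**Figure D2:**
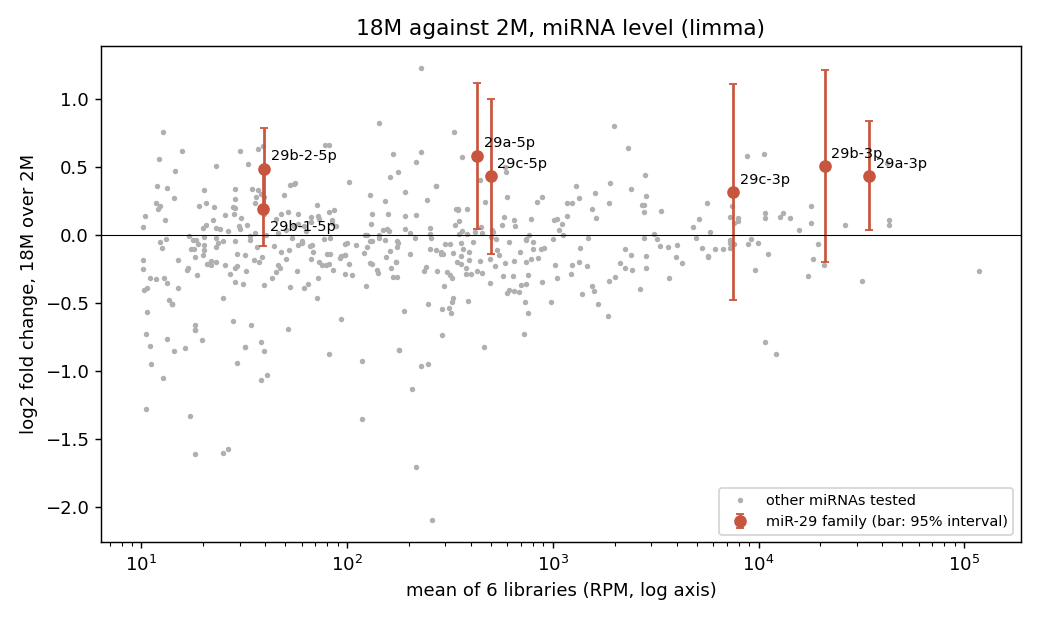
Log2 fold change of 18M over 2M against the mean level in RPM (log axis) for the 474 miRNAs tested, with the 7 family members in red and their 95% intervals as bars. All 7 members lie above 0, as do 37.97% of all miRNAs tested, and the intervals of 4 members include 0.

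18M replicate 2 also stood apart from the other 18M libraries over all miRNAs: the chi-square per degree of freedom was 1518 and 1406 against replicates 1 and 3, and 256.5 between replicates 1 and 3. Pairs of 2M libraries had 615.4 to 1064, so that 18M replicates 1 and 3 were the most alike of all pairs. Of 239 miRNAs of at least 100 RPM with a RefSeq sequence, 9 (3.766%) had 18M replicates 1 and 3 at least 1.3 times above every 2M library and 18M replicate 2 at most 1.2 times the highest of them. The 3p members were 3 of these 9; the factors were chosen after the values were seen. Across the 239 miRNAs, Spearman's rho of GC content was 0.047 with the log2 fold change and -0.040 with the difference among the 18M libraries. The points share their libraries, and the part of GC content in the miR-29 values was not tested.

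Markers of cell types were read from 7 lists of 35 miRNAs, of which 34 were in the table and 30 were tested. Of these, 0 had an adjusted p under 0.05 by limma, against 4.85% of all 474 miRNAs tested. The lists did not include astrocytes, where miR-29 is known to be abundant. Among the 18M libraries, replicate 2 had the highest sum of the neuron list (221950 RPM against 180860 and 184200 RPM) and the lowest sum of each of the other 6 lists. The oligodendrocyte list, for example, summed to 10089, 8109.5 and 11707 RPM at 18M and to 9108.2, 14776 and 7364.7 RPM at 2M. The sum of the microglia and immune cell list was 3775.6 to 4111.2 RPM at 2M and 2833.9 to 3401.8 RPM at 18M, without overlap. Most of this sum was miR-150-5p (2659 RPM on average), with a log2 fold change of -0.40 ± 0.12 (SE, limma adjusted p = 0.148). The list member miR-146a-5p went the other way, with a log2 fold change of 0.19. Of all single miRNAs tested, 24.9% had groups that did not overlap in either direction. The sums of the other lists overlapped. The neuron list, led by miR-124-3p, was far above the others in all 6 libraries. Its member miR-376a-3p did not follow the sum at 18M and was lowest in replicate 2 (3941, 1475 and 2339 RPM in replicates 1, 2 and 3). The part of cell composition in the miR-29 values was not tested, and in bulk tissue fewer cells of a type and less RNA per cell cannot be told apart.

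The miRNAs most like miR-29a-3p over the 6 libraries, among 271 compared outside the family, were miR-136-3p (Pearson's r 0.972 on the log2 scale), miR-376a-3p (0.951) and miR-101b-3p (0.937). miR-136-3p had 1847, 1419 and 2100 RPM at 2M and 3664, 1922 and 2953 RPM at 18M. Within the family, r with miR-29a-3p was 0.902 for miR-29b-3p and 0.859 for miR-29c-3p. These are descriptions over 6 points that share their libraries.

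The makeup of the 3p reads was similar at both ages. miR-29a-3p held 57.4, 51.7 and 57.3% of them at 2M and 50.8, 61.1 and 53.5% at 18M. miR-29b-3p held 32.1% ± 3.54 at 2M and 33.5% ± 3.45 at 18M (SD, n = 3 each), and miR-29c-3p 12.4% ± 0.592 and 11.4% ± 1.91. All 3 shares overlapped between the ages, with exact permutation p from 0.6 to 0.9 (two-sided). The smallest p this test can give with 3 libraries against 3 is 0.1.

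The single base between miR-29a-3p and miR-29c-3p raises the question of misread bases. Reads with C10T, which are miR-29c-3p, had 24.72% of the RPM of the 21-base miR-29a-3p read and 20.88% of the 22-base read. The same kind of change at the other cytosines of these reads (positions 4, 6, 7 and 17) reached 0.0533 to 0.115%. Reads of miR-29c-3p were thus far more frequent than such changes elsewhere in miR-29a-3p.

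The share of 5p reads differed between the genes, and for each gene it overlapped between the ages. It was 1.16% ± 0.270 at 2M (SD, n = 3) and 1.27% ± 0.00467 at 18M for miR-29a, 0.414% ± 0.0788 and 0.384% ± 0.148 for miR-29b, and 6.21% ± 1.56 and 6.79% ± 2.42 for miR-29c. For miR-29c it ranged from 4.41% (95% Wilson interval 4.32 to 4.51%) to 7.21% (7.08 to 7.35%) among the 2M libraries and from 4.86% (4.77 to 4.95%) to 9.51% (9.35 to 9.68%) among the 18M libraries, with replicate 2 the lowest at 2M and the highest at 18M. Libraries of the same age thus differed by more than counting error. Such intervals cover counting error only. Of 192 arm pairs of at least 100 RPM, 9.4% had a 5p share whose groups did not overlap, and none of the 3 miR-29 shares did.

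Among the 5p reads of miR-29b, those of miR-29b-2 made up 48.7, 46.4 and 46.9% at 2M and 51.2, 53.5 and 53.1% at 18M. The groups did not overlap, and the difference was 5.29 percentage points (exact permutation p = 0.1, adjusted p = 0.417 over 25 measures, higher in 3 of 3 18M libraries). It rests on 1374 to 2106 reads per library, with Wilson intervals such as 44.2 to 49.5% for 2M replicate 3 and 48.8 to 53.6% for 18M replicate 1.

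**Figure D3:**
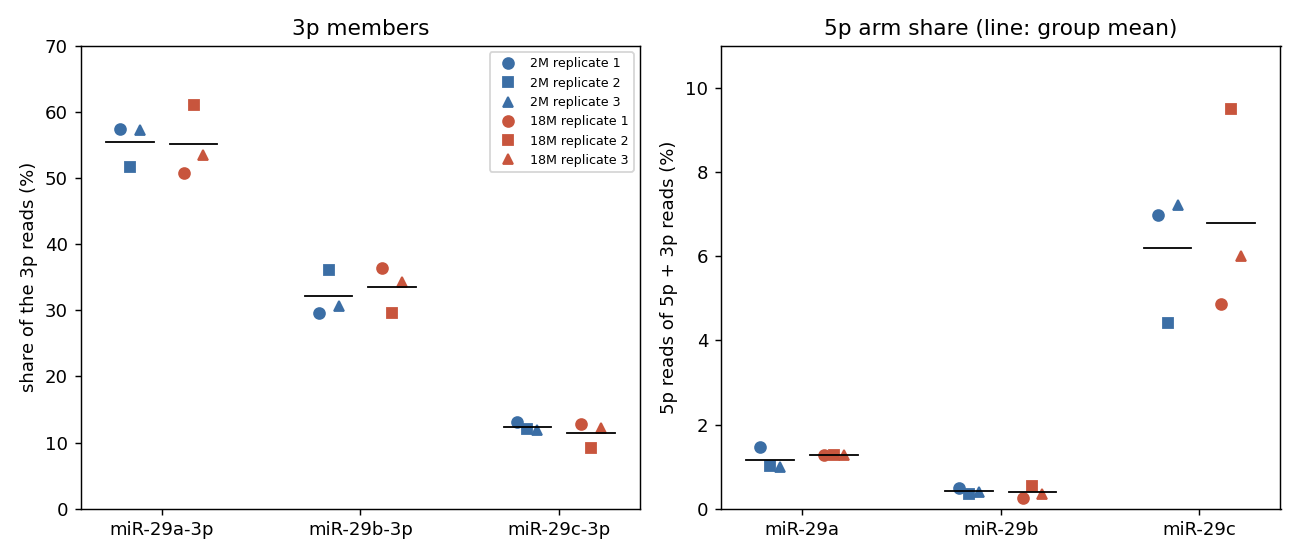
Left, share of each 3p member among the 3p reads of the family (%). Right, share of 5p reads among the 5p and 3p reads of miR-29a, miR-29b and miR-29c (%). Points are libraries, lines are group means, and all 6 measures overlap between 2M (blue) and 18M (red).

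Where a read starts decides its seed. In these data each read carries the 6mer seed viability, the percent of cells that survive an siRNA with the seed at read positions 2 to 7, as the mean of mouse cell lines. A low viability marks a toxic seed. The reference seed of the 3p members, AGCACC, has a viability of 51.3%, and the 3 members made up 98.1% of all reads with this seed.

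The main reads of the 3p members show the common start and a variant with 1 extra base (read positions 2 to 7 in capitals):

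miR-29a-3p, reference start: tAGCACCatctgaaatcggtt

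miR-29b-3p, reference start: tAGCACCatttgaaatcagtgtt

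miR-29c-3p, reference start: tAGCACCatttgaaatcggtt

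miR-29b-3p, 1 base upstream: cTAGCACcatttgaaatcagtgt

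The upstream cytosine stands in all 4 precursors, and it turns the seed into UAGCAC, with a viability of 28.9%. Reads with this start made up 8.27% ± 1.03 (SD, n = 3) of miR-29a-3p at 2M and 7.59% ± 0.416 at 18M, 4.22% ± 0.257 and 3.55% ± 0.563 of miR-29b-3p, but 0.616% ± 0.0428 and 0.562% ± 0.162 of miR-29c-3p. The order of the members was the same in all 6 libraries. All shares of reads with another seed than the reference overlapped between the ages, with exact permutation p from 0.3 to 1.

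As a whole, the family reads had a mean 6mer seed viability of 50.2% ± 0.163 at 2M (SD, n = 3) and 50.3% ± 0.103 at 18M. The share of family reads with a viability under 40% was 6.35, 7.0 and 6.11% at 2M and 5.22, 6.64 and 5.83% at 18M. Both overlapped. Summed over all reads of the series, the seed AGCACC had a log2 fold change of 0.46 ± 0.22 (SE, limma adjusted p = 0.43) and UAGCAC one of 0.30 ± 0.17 (SE, limma adjusted p = 0.482).

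Outside the labelled family reads, the seed AGCACC was carried by reads with no miRNA label (880 RPM on average) and by miR-3102-3p (218 RPM). The reads with no label had 694, 733 and 735 RPM at 2M and 1260, 712 and 1146 RPM at 18M. They may include miR-29 variants, since some unlabelled reads were placed on miR-29 precursors, as given near the end. How many of them are such reads was not counted. Reads of miR-136-5p, miR-770-5p and miR-222-3p with this seed had a mean of at most 1.53 RPM over the 6 libraries. miR-3102-3p, which thus has the same 6mer seed, was higher at 18M, with a log2 fold change of 0.60 ± 0.11 (SE, limma adjusted p = 0.0332). Its reads with the seed had 182, 161 and 174 RPM at 2M and 251, 265 and 275 RPM at 18M, a small fraction of the miR-29 level.

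The main seeds of the 5p members had a higher viability than AGCACC, and the members differed in how far their starts varied. The viability of the main seed was 69.2% for miR-29a-5p, 73.8% for miR-29b-1-5p, 81.9% for miR-29b-2-5p and 55.2% for miR-29c-5p. Reads of miR-29a-5p and miR-29b-1-5p kept the reference start in at least 97.5% of cases in every library. miR-29b-2-5p started 1 base upstream in 35.97% ± 4.26 at 2M (SD, n = 3) and 29.3% ± 4.89 at 18M, which gives it the seed CUGGUU of miR-29b-1-5p.

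miR-29c-5p started at the reference base in 43.8, 46.0 and 48.1% of reads at 2M and in 49.4, 50.9 and 53.3% at 18M. It started 2 bases downstream, with the seed CCGAUU (viability 77.2%), in 18.9, 20.99 and 16.5% at 2M and 15.5, 13.4 and 15.7% at 18M. Neither share overlapped between the ages, but the share that started 1 base downstream did (34.5% ± 2.21 and 33.2% ± 2.35, SD, n = 3). These starts were not among the 25 measures tested. Over all miRNAs of at least 100 RPM with a hairpin in RefSeq, 8.77% of 228 had a lower share of reads with a shifted seed in every 18M library. In either direction 14.5% did not overlap. This background covers all shifted reads of a miRNA, not single starts.

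**Figure D4:**
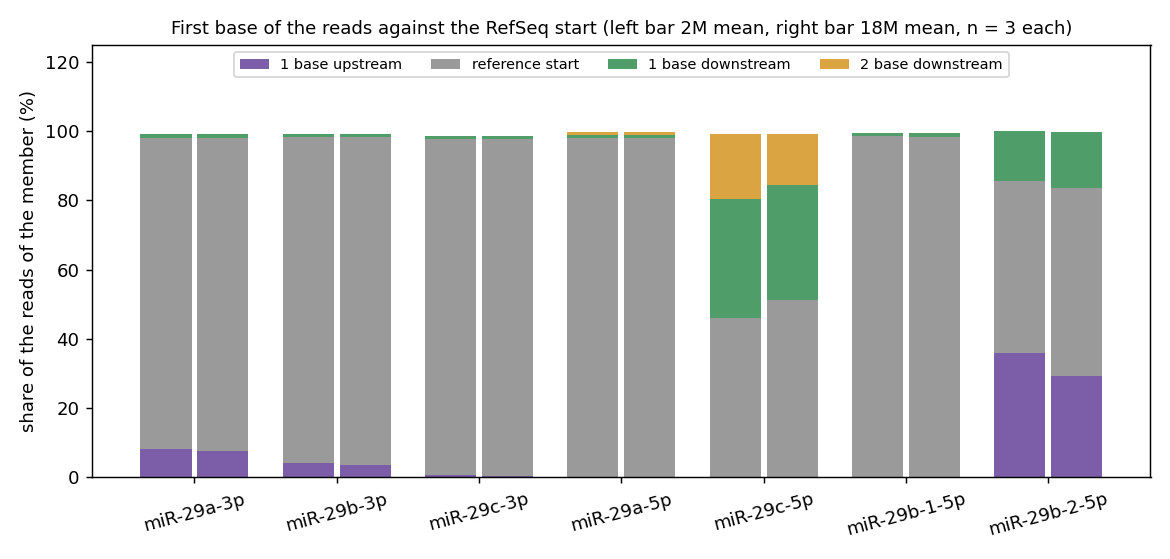
Share of the reads of each member (%) by the position of the first base against the RefSeq start, as group means of 3 libraries, with 2M as the left bar and 18M as the right bar. Bars end just below 100% because starts under 0.5% are left out. Upstream starts are frequent in miR-29b-2-5p, downstream starts in miR-29c-5p, and the 3p members begin mostly at the reference base.

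At the 3′ end the 3p members differed from each other. Reads of miR-29a-3p were mostly of 21 or 22 bases (44.7% ± 3.16 and 42.4% ± 2.08 at 2M, SD, n = 3), and reads of miR-29c-3p likewise (52.0% ± 4.49 and 33.0% ± 4.12). miR-29b-3p was mainly of 23 or 22 bases. Its reads of the reference length of 23 bases made up 48.8, 64.6 and 50.4% at 2M and 44.2, 54.6 and 41.9% at 18M, with overlap between the ages (exact permutation p = 0.3). Mean lengths were 21.5, 22.6 and 21.3 bases at 2M for miR-29a-3p, miR-29b-3p and miR-29c-3p, and 21.5, 22.5 and 21.4 bases at 18M.

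Tails, here 1 to 3 bases at the 3′ end that do not match the precursor, were more frequent at 18M in part of the family. An added base equal to the next precursor base cannot be seen as a tail. The tail share of miR-29a-3p was 6.06, 4.36 and 5.84% at 2M and 7.58, 7.02 and 6.90% at 18M. That of miR-29c-3p was 6.45, 4.87 and 7.23% at 2M and 7.56, 7.25 and 7.92% at 18M. Every 18M library, replicate 2 included, exceeded every 2M library for both members (exact permutation p = 0.1, adjusted p = 0.417, higher in 3 of 3 18M libraries each). For miR-29c-3p the margin was 7.23 against 7.25%.

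The tail share of miR-29b-3p was 3.76, 2.66 and 3.37% at 2M and 3.80, 3.92 and 3.18% at 18M, and the groups overlapped. Tails of adenine alone made up 2.94% ± 0.903 (SD, n = 3) of miR-29a-3p at 2M and 4.22% ± 0.290 at 18M. Tails of thymine, which is uridine in the RNA, made up 1.49% ± 0.136 and 1.90% ± 0.0506 of miR-29a-3p, 1.60% ± 0.293 and 2.08% ± 0.160 of miR-29c-3p, and 0.121% ± 0.0139 and 0.111% ± 0.00752 of miR-29b-3p. In the Mir29b-2 precursor a uridine follows the usual ends of miR-29b-3p, so that a uridine added there counted as templated. The thymine share of miR-29b-3p therefore cannot be compared with those of the other 3p members. Adenine tails of miR-29a-3p and thymine tails of miR-29a-3p and miR-29c-3p did not overlap between the ages, each with the smallest exact permutation p of 0.1. In all, 6 of 25 measures did not overlap, and the tail measures among them share reads.

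Among the 5p members, miR-29c-5p had a tail share of 12.1, 11.3 and 12.9% at 2M and 15.3, 15.6 and 14.3% at 18M, without overlap, and that of miR-29a-5p overlapped. Thus 3 of the 5 members of at least 100 RPM had a higher tail share in every 18M library. This has to be read against 20.2% of all 228 miRNAs with that pattern and 71.1% of them with a higher mean share at 18M. For adenine tails the background was 21.5% and for thymine tails 9.21%. The median tail share over these miRNAs was 9.85, 9.12 and 9.69% in the 2M libraries and 10.2, 11.04 and 10.3% in the 18M libraries.

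**Figure D5:**
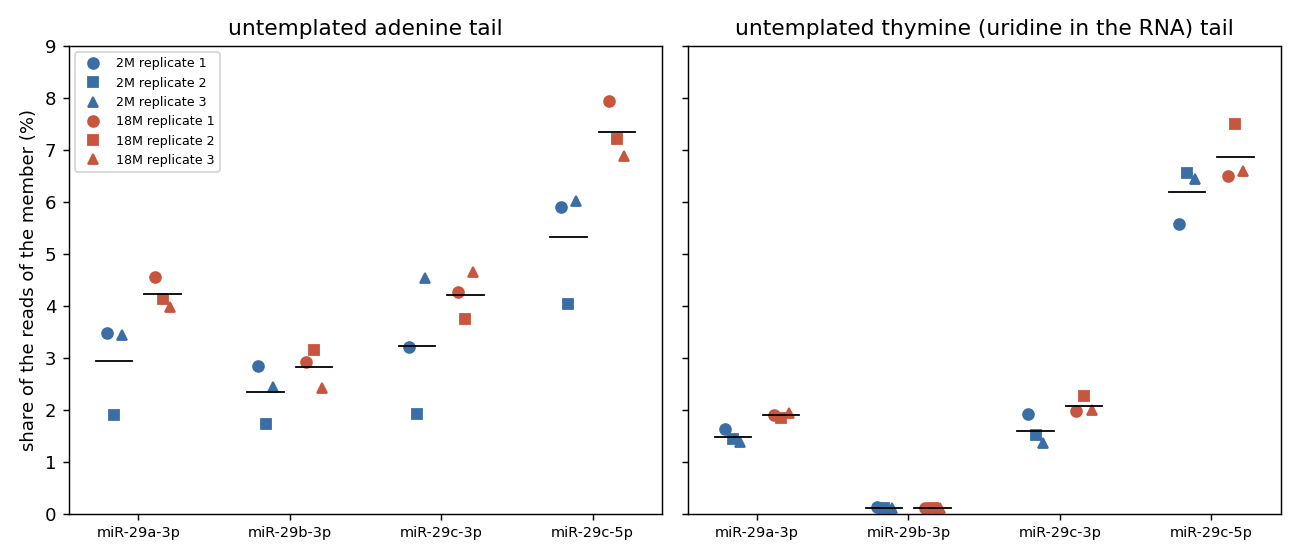
Share of reads with an untemplated adenine tail (left) or thymine tail (right) for the 3p members and miR-29c-5p (% of the reads of the member), with points for libraries and lines for group means. Thymine tails of miR-29b-3p stay near 0.1% in all 6 libraries, and a uridine added to its usual ends counts as templated. The adenine tails of miR-29a-3p and miR-29c-5p do not overlap between 2M and 18M.

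Single read sequences were also compared. Of the 2086 family reads, 109 had a mean of at least 10 RPM. They were 43 reads of miR-29a-3p, 30 of miR-29b-3p, 14 of miR-29c-3p, 6 of miR-29a-5p, 15 of miR-29c-5p and 1 of miR-29b-1-5p, and no single read of miR-29b-2-5p reached this level. The fold change was above 0 for 105 of the 109, against 52.48% of all 3281 reads tested, with a median of 0.43 on the log2 scale against 0.02. Groups did not overlap for 35, all higher at 18M, against 11.5% of all reads tested. The p before adjustment was under 0.05 for 30, against 8.41% of all reads tested that were higher at 18M. These reads are not independent, since they come from few miRNAs.

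The largest gains in mean RPM were in main reads. The 22-base read of miR-29b-3p (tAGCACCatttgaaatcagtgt) had 5678, 5009 and 6605 RPM at 2M and 14548, 4948 and 13072 RPM at 18M. The 21-base read of miR-29a-3p had 11414, 12480 and 12958 RPM at 2M and 18382, 12954 and 18800 RPM at 18M. The 22-base read of miR-29a-3p (tAGCACCatctgaaatcggtta) followed, with a log2 fold change of 0.34 ± 0.19 (SE). None of the 3 had an adjusted p under 0.05 by limma (0.349 to 0.457).

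The largest losses were small. The miR-29c-5p read that starts 2 bases downstream (aCCGATTtctcctggtgttcaga) had 29.8 RPM ± 2.74 at 2M (SD, n = 3) and 26.6 RPM ± 4.53 at 18M. The upstream read of miR-29b-3p that ends 1 base earlier (cTAGCACcatttgaaatcagtg) had 139 RPM ± 39.0 at 2M and 137 RPM ± 36.7 at 18M. The third, a read of miR-29a-3p with untemplated 5′ bases, had 13.9 RPM ± 5.16 and 13.0 RPM ± 7.55.

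A single family read had an adjusted p under 0.05 by limma, against 0.213% of all reads tested that were called higher at 18M. It is a rare read of miR-29a-3p, cut back to 19 bases and followed by an untemplated adenine (tAGCACCatctgaaatcgga), and it is named here after its values were seen. It had 9.76, 7.89 and 8.77 RPM at 2M and 20.4, 20.5 and 20.6 RPM at 18M, with a log2 fold change of 1.14 ± 0.15 (SE, limma adjusted p = 0.0391). It was not called when any 1 of the 6 libraries was left out. The 20-base read of miR-29a-5p (aCTGATTtcttttggtgttc), also named after its values were seen, had 13.0, 6.34 and 12.9 RPM at 2M and 34.5, 31.3 and 41.2 RPM at 18M, with a log2 fold change of 1.69 ± 0.28 (SE, limma adjusted p = 0.0791). Reads of 20 bases made up 3.68, 2.53 and 4.58% of miR-29a-5p at 2M and 6.38, 8.72 and 7.99% at 18M. Its reads of 21 bases (26.4% at 2M and 30.9% at 18M on average) and of 22 bases (15.1 and 12.3%) did not overlap either. These lengths were not among the 25 measures tested. Over 228 miRNAs of at least 100 RPM, 14.5% had a lower mean length in every 18M library. That background covers mean length, not single lengths.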

How the data were processed

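Per the labels and the methods of the study, Ago-bound RNA of 19-35 nt from 3 libraries of 2M and 3 of 18M cortex and hippocampus was sequenced on an Illumina HiSeq. The authors trimmed the reads (Trim Galore, version not given in the sources used here), collapsed identical reads, removed rare ones, matched the sequences to mouse small RNA lists and deposited RPM per library. They also deposited a summed signal column and a viability score for each 6mer seed. RPM values were whole multiples of 1 read in 100% of cases (within 0.05 of a read), so that read counts were recovered.

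RPM were summed per miRNA label, with a read of several labels counted under each. Differences were tested on log2(RPM + 1) with limma 3.58.1 (trend, R 4.3.3) on 474 miRNAs, 3281 reads and 1105 seeds that averaged 10 RPM or more. P-values were adjusted after Benjamini and Hochberg and called under 0.05. Log2 values on this scale understate changes of rare features. On simulated counts with 4-fold changes in miRNAs below the 90th percentile of level, 112 of 112 changed miRNAs were recovered, and 8 unchanged ones of 472 tested were called. With changes at all levels, which shift the RPM of unchanged miRNAs, 115 of 115 were recovered and 69 unchanged ones of 462 tested were called. The first of these settings was added after an earlier simulation at all levels had called unchanged miRNAs. Ratios of the family members were 1.14 to 1.49, so that recovery of 4-fold changes does not show how well such changes are called. Shares per library were compared by an exact two-sided permutation test, adjusted over 25 measures. edgeR 4.0.16 and DESeq2 1.42.0 were run on the recovered reads as alternatives. Reads were aligned from the 5′ end to RefSeq hairpins, and a tail was 1 to 3 unmatched 3′ bases after at least 15 matched ones. Libraries of a group are separate samples in the labels, and p-values measure only the spread between them. No 2 libraries agreed within sampling noise.

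Named were all 7 members, the top reads of each, the 3 largest gains and losses among reads, the carriers of the main seed and the 3 miRNAs most like miR-29a-3p. Members and lists were chosen with earlier results of these data known.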

Additional observations from a re-analysis of the deposited data

Results flagged for a closer look

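Reads to which the deposited miRNA annotation gives no label, but whose second annotation column names a miR-29 precursor, lie outside the family values above. There were 1348 such sequences with a mean of 1276 RPM. They summed to 1018, 1071 and 1072 RPM at 2M and to 1805, 1036 and 1656 RPM at 18M, which was 1.95 to 2.03% of the labelled family reads in every library. Of these sequences, 379 (1060 RPM on average) differed at 1 base from a 3p member at the reference start.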

How the results depend on the processing

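The log2 fold changes of all 7 members kept their direction under every alternative in which they were tested. DESeq2 and the fit without 18M replicate 2 brought members past the threshold, as given above. The number of miRNAs called, 23, fell to 2 at a minimum of 100 RPM, 3 with no filter, 15 when the trend was left out, 14 by edgeR, 15 with reads of a single label, 12 with reads of the main seed and 14 under median-of-ratios scaling. By DESeq2 it was 46. Median-of-ratios scaling brought the median over miRNAs from -0.07 to 0.02 on the log2 scale, and the share above 0 from 37.97 to 52.32%. Leaving out 1 library gave 0 (2M replicate 2 or 3, with 73 and 80 at an unadjusted p under 0.05 by limma) to 15 (18M replicate 2).

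The 12 reads called became 20 at a minimum of 1 RPM, 0 at 100 RPM (92 at an unadjusted p under 0.05 by limma), 54 with no filter, 151 by DESeq2 and 0 with any 1 library left out (258 to 564 unadjusted). The family read called, 1, became 2, 0, 2, 17 and 0 in the same order. The 10 seeds called became 5 at a minimum of 1 RPM, 4 at 100 RPM, 5 with no filter, 18 under median-of-ratios scaling, 4 when the trend was left out, 50 by DESeq2 and 0 to 38 with 1 library left out, the highest without 18M replicate 2.

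Replicate numbers did not pair the libraries (correlations of the deviations of same-numbered libraries -0.169, -0.221 and -0.100). With the replicate block 1 miRNA, 0 reads, 0 family reads and 0 seeds were called by limma, with 70 miRNAs, 348 reads and 109 seeds at an unadjusted p under 0.05.

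Differences of shares whose direction turned with 1 library left out had no direction to report. In percentage points of 18M minus 2M, they ranged from -0.111 to 0.0334 for the 5p share of miR-29b and from -0.775 (without 18M replicate 2) to 1.55 for that of miR-29c. The share of the 3p reads ranged from -3.36 to 1.81 for miR-29a-3p, from -0.118 to 3.37 for miR-29b-3p and from -1.69 to 0.106 for miR-29c-3p. The shifted share of miR-29c-3p ranged from -0.368 to 0.197, and the mean length of miR-29a-3p from -0.0434 to 0.00475 bases. The thymine tail of miR-29b-3p turned to 0.000483 with tails of exactly 1 base. The tail shares of miR-29a-3p and miR-29c-3p and the miR-29b-2 share kept their direction with any 1 library left out. Where counts or directions changed, the cause was not tested.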
